A study of Homo sapiens with 8 samples.

Results

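The 10 genes described here encode Jumonji C (JmjC) proteins and were chosen by name: the KDM3 family members KDM3A, KDM3B and JMJD1C, the KDM2 pair KDM2A and KDM2B, KDM5A and KDM5B, KDM6B, KDM7A, and JMJD6. The choice was made with earlier results of these data known. The genes are 10 of the 19774 genes that the array represents by a probe set annotated to exactly 1 gene symbol. Each gene was read from its brightest probe set over all arrays, and the other probe sets, 35 in all for the 10 genes, served as a check. All 10 genes reached the level required for testing.

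Expression was measured in total RNA of 4 human neuroblastoma cell lines on 8 Affymetrix arrays, so that a line has 1 array with each treatment. Cells received 2.5 µM ciclopirox, an antifungal hydroxypyridone that binds iron, or vehicle for 48 h. The lines were SKNAS, NB1691, SKNBE2 and SKNAS/shHIF1a, the last a SKNAS derivative with a stable knockdown of HIF1A, a gene for the alpha subunit of hypoxia-inducible factor (HIF). The series title names another JmjC demethylase, JMJD2B (KDM4B), as the protein to be inhibited. The labels give SKNAS a c-Myc status and the other 3 lines an N-Myc status. Whether SKNAS/shHIF1a is 1 clone or a pool is not given in the sources used here, nor is the identity of the vehicle.

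JmjC demethylases are oxygenases that hold iron in their active site and use molecular oxygen and 2-oxoglutarate to take methyl groups off lysines, mostly of histone tails. KDM3 enzymes act on histone H3 lysine 9 (H3K9), KDM2 enzymes on H3K36, KDM5 enzymes on H3K4, KDM6B on H3K27, and KDM7A on H3K9 and H3K27. JMJD6 is a lysyl hydroxylase of splicing factors whose demethylase activity is debated. KDM3A is a known target gene of HIF, the transcription factor that builds up when oxygen or iron is short.

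HIF binds DNA at the core letters ACGTG or GCGTG. The 250 bases before a transcription start are therefore shown for the 3 genes of the KDM3 family. The sequences are RefSeq's on GRCh38.p14, read 5′ to 3′ on the strand of the gene, with the searched letters in capitals. The KDM3A window (chr2:86441121-86441370, plus strand, inside the annotated gene at chr2:86437044-86492716) holds GCGTG, beginning 26 bases before the start. The KDM3B window (chr5:138352435-138352684, plus strand) holds neither motif. The JMJD1C window (chr10:63521891-63522140, minus strand) holds CACGTG, a palindrome that carries ACGTG on both strands, beginning 230 bases before the start.
KDM3A: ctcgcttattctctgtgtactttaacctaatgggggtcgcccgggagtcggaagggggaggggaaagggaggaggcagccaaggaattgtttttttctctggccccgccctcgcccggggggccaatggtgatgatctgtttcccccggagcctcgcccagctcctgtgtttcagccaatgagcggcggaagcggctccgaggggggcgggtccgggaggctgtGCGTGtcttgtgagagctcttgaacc
KDM3B: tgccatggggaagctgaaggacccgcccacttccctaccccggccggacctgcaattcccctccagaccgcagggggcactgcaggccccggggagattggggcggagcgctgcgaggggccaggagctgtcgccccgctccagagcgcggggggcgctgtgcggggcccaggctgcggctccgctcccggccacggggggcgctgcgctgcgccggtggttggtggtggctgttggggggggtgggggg
JMJD1C: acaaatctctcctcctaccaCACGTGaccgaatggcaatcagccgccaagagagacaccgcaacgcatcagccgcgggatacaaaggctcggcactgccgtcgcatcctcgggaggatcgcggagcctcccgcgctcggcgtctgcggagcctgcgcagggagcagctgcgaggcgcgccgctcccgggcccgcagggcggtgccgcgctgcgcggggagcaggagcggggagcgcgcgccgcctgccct
KDM3A has another listed start whose window overlaps this one and holds the same GCGTG, and the other 2 JMJD1C windows hold neither motif. RefSeq windows were matched for 9 of the 10 genes, with 17 listed starts. ACGTG or GCGTG stands on either strand in the windows of 11 of these 17. At least 1 window holds a motif in 8 of the 9 genes, all but KDM3B. The mean changes of these 8 with ciclopirox ran from -0.30 for KDM2B to 1.22 for KDM3A. Whether a motif goes with the response was not tested. Of all 35116 listed starts, 43.2% have at least 1 of these short motifs in a window of the same length. Windows of 1 gene can overlap, as those of KDM3A do. A match describes the letters and is not evidence of a bound site.

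The lines were checked on their labelled features. HIF1A had log2 levels of 11.09 with ciclopirox and 11.71 with vehicle in SKNAS/shHIF1a, against 11.94 and 12.25 in SKNAS. The difference of -0.69 ± 0.21 (SE) did not pass the test (limma, adjusted p = 0.257), so the knockdown is not established by this probe set. MYC was at 9.10 to 10.16 in SKNAS and SKNAS/shHIF1a and at 2.66 to 3.28 in NB1691 and SKNBE2. MYCN, by contrast, was at 11.77 to 12.53 in NB1691 and SKNBE2, at 5.41 to 5.65 in SKNAS/shHIF1a and at 2.77 to 3.36 in SKNAS, which goes against the N-Myc label of SKNAS/shHIF1a. Lines were therefore grouped by origin: SKNAS with SKNAS/shHIF1a, and NB1691 with SKNBE2. Array medians lay between 3.47 and 3.52. The labels do not mention separate cultures, so p-values reflect only how these samples vary, and their small number limits the precision.

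KDM3A had the largest response to ciclopirox among the 10 genes, 2.32-fold on average, and was the only one of them in which every ciclopirox array lay above every vehicle array. JMJD6, KDM6B, JMJD1C, KDM5B and KDM3B averaged 1.23- to 1.50-fold higher, and KDM2B was the only gene with a lower mean. No single gene passed the adjusted test. In limma, with lines as blocks, 0 of the 10 genes and 0 of all 14517 genes tested (0%) reached a Benjamini-Hochberg adjusted p under 0.05, and the smallest adjusted p was 0.121. At an unadjusted p under 0.05, 6 of the 10 were higher (KDM3A, KDM3B, JMJD1C, KDM5B, KDM6B and JMJD6), against 7.67% of all genes, and 0 were lower, against 10.2%. The median mean change was 0.33 for the 10 genes and -0.01 for all genes tested. These values only describe the 10, which were chosen with earlier results of these data known. The 10 were also brighter, with a median level of 8.93 against 6.89 for all genes tested. Shares for genes of like level were not taken.

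**Figure D1:**
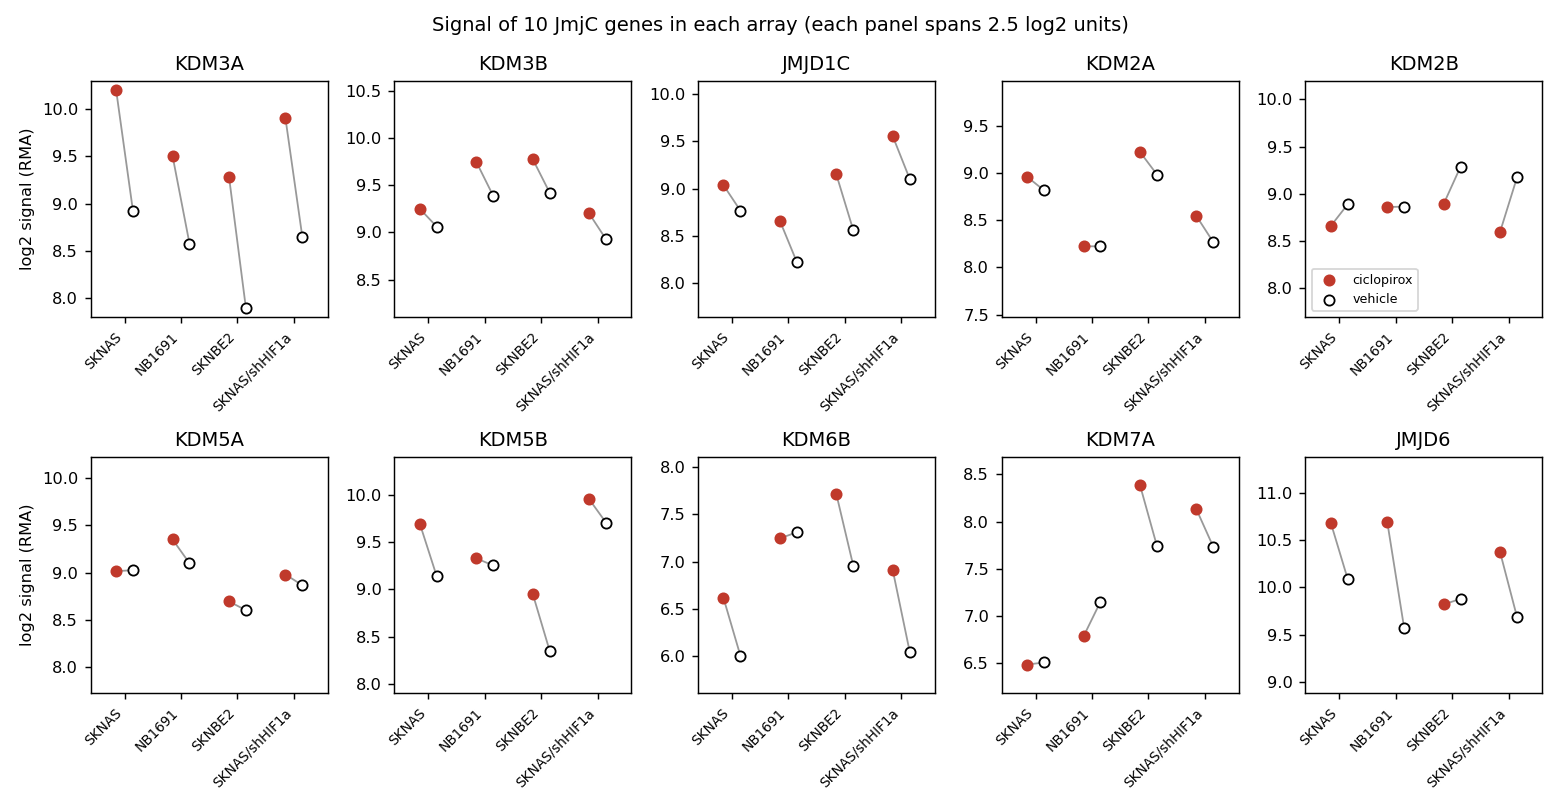
Log2 signal (RMA, vertical axis) of the 10 JmjC genes in each array, with ciclopirox (filled) left of vehicle (open) for each line and every panel spanning the same number of log2 units. The KDM3A points with ciclopirox, 9.28 to 10.20, all lie above those with vehicle, 7.89 to 8.92.

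Of the KDM3 family, KDM3A, which removes mono- and dimethyl groups from H3K9, had log2 levels with ciclopirox of 10.20 in SKNAS, 9.51 in NB1691, 9.28 in SKNBE2 and 9.90 in SKNAS/shHIF1a. With vehicle its levels were 8.92, 8.58, 7.89 and 8.64 in the same order of lines. The groups did not overlap, a separation in this direction that 1.06% of all genes tested had. The KDM3A change was 1.29 in SKNAS, 0.93 in NB1691, 1.39 in SKNBE2 and 1.26 in SKNAS/shHIF1a, so at least 2-fold in every line but NB1691. The mean change was 1.22 ± 0.13 (SE, n = 4 lines, 95% confidence interval 0.90 to 1.53), with a limma p of 8.41e-05 and an adjusted p of 0.121. Only 7 genes had a lower p. SKNAS and its derivative count as separate lines here and in every n = 4. With these 2 lines averaged, the mean KDM3A change was 1.20 (limma adjusted p = 0.306). A mean at least 2-fold higher was seen in 1.78% of all genes and, among the 10, in KDM3A alone. A second KDM3A probe set averaged 2.78, below the level of 3.21 required for testing, so KDM3A rests on 1 probe set. Averaging both gave a mean change of 0.57.

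KDM3B, the closest relative of KDM3A, had levels of 9.25, 9.75, 9.78 and 9.20 with ciclopirox, against 9.06, 9.39, 9.42 and 8.93 with vehicle (SKNAS, NB1691, SKNBE2, SKNAS/shHIF1a). It was higher in each line, by 0.19 to 0.36, while the 2 groups overlapped because lines differed more than treatments. The mean change was 0.29 ± 0.11 (SE, n = 4; limma adjusted p = 0.261). JMJD1C, a further family member whose H3K9 activity is less settled, had levels of 9.04, 8.66, 9.15 and 9.55 with ciclopirox, against 8.77, 8.22, 8.56 and 9.10 with vehicle. It too was higher in each line, by 0.27 to 0.59, with overlapping groups and a mean of 0.44 ± 0.12 (limma adjusted p = 0.183). The 3 family members were thus among the 5 of 10 genes that were higher in all 4 lines, against 11.8% of all genes tested. The others were KDM5B and KDM2A, the latter by only 0.00022 in NB1691. Both KDM3B probe sets gave a higher mean, 0.26 and 0.29. The 4 JMJD1C probe sets at a testable level ranged in mean change between -0.16 and 0.49, with 1 of the 4 negative.

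**Figure D2:**
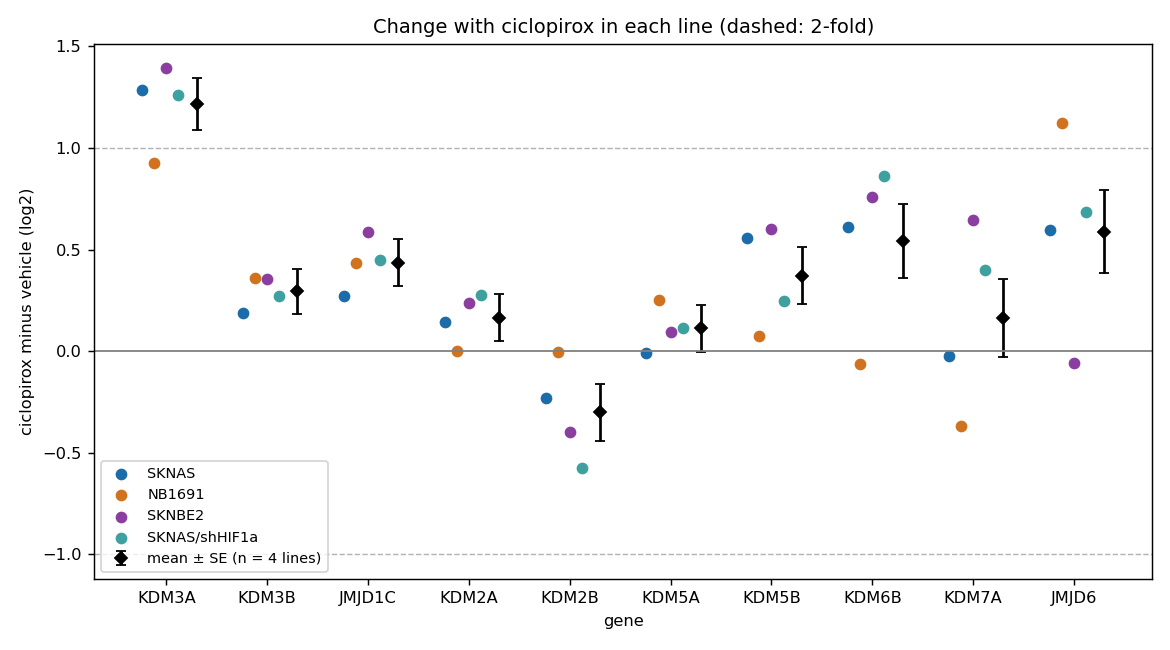
Ciclopirox minus vehicle (log2, vertical axis) for each gene, with 1 coloured point per line. The mean of 4 lines is a diamond, and its limma SE is the error bar. KDM3A has all 4 points between 0.93 and 1.39, whereas KDM7A spans -0.37 to 0.64 and JMJD6 spans -0.06 to 1.13.

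The KDM2 pair, which share an H3K36 demethylase domain and a CXXC domain that binds unmethylated CpG, had changes of opposite sign. KDM2A levels were 8.96, 8.22, 9.22 and 8.54 with ciclopirox, against 8.82, 8.22, 8.98 and 8.27 with vehicle. Its mean change was 0.16 ± 0.12 (SE, n = 4; limma adjusted p = 0.491), and its change in NB1691 was only 0.00022. All 3 KDM2A probe sets had positive means, 0.16 to 0.31, but the second brightest was lower in SKNBE2, at -0.08. KDM2B, which recruits a variant Polycomb complex to CpG islands, had levels of 8.66, 8.86, 8.89 and 8.60 with ciclopirox, against 8.89, 8.87, 9.29 and 9.18 with vehicle. It was lower in each line, by as little as -0.0033 in NB1691 and as much as -0.58 in SKNAS/shHIF1a, with a mean of -0.30 ± 0.14 (adjusted p = 0.313). It was the only 1 of the 10 lower in all 4 lines, against 16.0% of all genes. The difference between KDM2A and KDM2B was not tested.

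Of the H3K4 demethylases, KDM5B had levels of 9.70, 9.33, 8.95 and 9.95 with ciclopirox, against 9.14, 9.25, 8.35 and 9.71 with vehicle. Its change was 0.56 in SKNAS and 0.60 in SKNBE2 but 0.08 in NB1691 and 0.25 in SKNAS/shHIF1a, a mean of 0.37 ± 0.14 (SE, n = 4; limma adjusted p = 0.259). Of its 4 probe sets at a testable level, 3 were higher in all 4 lines and 1 had a negative mean, -0.19. KDM5A, the founding member of the family and a partner of the retinoblastoma protein, had levels of 9.02, 9.35, 8.70 and 8.98 with ciclopirox, against 9.03, 9.10, 8.60 and 8.87 with vehicle. The mean change was 0.11 ± 0.11 (95% confidence interval -0.17 to 0.39; adjusted p = 0.642). Its other 4 probe sets all had negative means, the lowest -0.22, so the sign for KDM5A depends on the probe set.

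KDM6B, the inducible H3K27 demethylase, had levels of 6.62, 7.25, 7.72 and 6.91 with ciclopirox, against 6.01, 7.31, 6.96 and 6.05 with vehicle. It was higher by 0.61 in SKNAS, 0.76 in SKNBE2 and 0.86 in SKNAS/shHIF1a and slightly lower, at -0.06, in NB1691. The mean was 0.54 ± 0.18 (SE, n = 4), or 1.46-fold, with a limma adjusted p of 0.228. All 5 of its probe sets had positive means, 0.50 to 0.68. In NB1691 they disagreed, as the dimmer KDM6B probe sets gave 0.16, -0.41, -0.44 and -0.67 there. KDM7A, which pairs a PHD finger that reads H3K4 methylation with the demethylase domain, had levels of 6.49, 6.79, 8.39 and 8.13 with ciclopirox, against 6.51, 7.15, 7.74 and 7.73 with vehicle. Lines disagreed in sign, with changes of -0.02, -0.37, 0.64 and 0.40, and the mean of 0.16 ± 0.19 did not pass the test (adjusted p = 0.690). Its dimmer probe set was higher in all 4 lines, by 0.38 to 0.66, at levels of 3.10 to 4.51 near the floor of the array.

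JMJD6, the lysyl hydroxylase, had levels of 10.68, 10.69, 9.82 and 10.37 with ciclopirox, against 10.09, 9.57, 9.88 and 9.68 with vehicle. Its change was 0.60 in SKNAS, 1.13 in NB1691, -0.06 in SKNBE2 and 0.69 in SKNAS/shHIF1a. JMJD6 thus had its largest change, past 2-fold, in NB1691, where KDM6B, KDM5B and KDM2A showed little or none in their brightest probe sets. The mean was 0.59 ± 0.20 (SE, n = 4), or 1.50-fold, with a limma adjusted p of 0.235. A second JMJD6 probe set had the same order of lines, with 0.50, 1.24, -0.22 and 0.56, and the remaining testable one gave 0.0034, -0.29, -0.63 and 0.21. Past 2-fold in a single line were KDM3A in SKNAS, SKNBE2 and SKNAS/shHIF1a and JMJD6 in NB1691, so 1 of 10 genes in each line, against 3.38% of all genes in SKNAS, 3.31% in NB1691, 2.11% in SKNBE2 and 5.52% in SKNAS/shHIF1a.

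**Figure D3:**
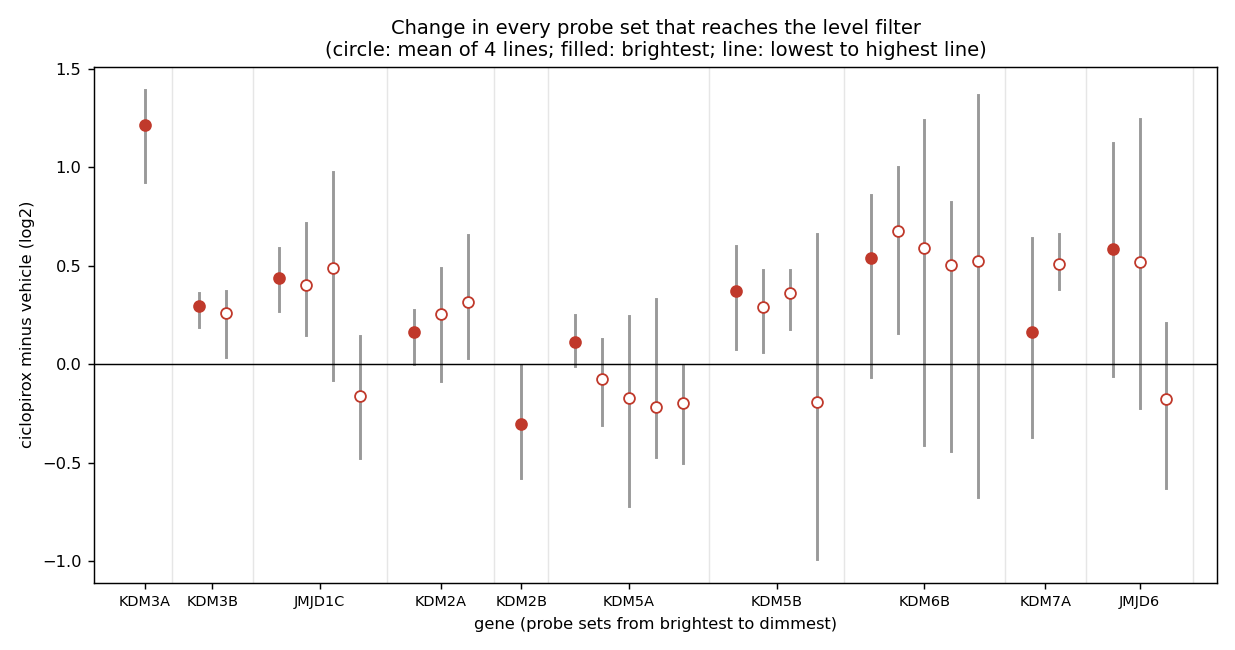
Ciclopirox minus vehicle (log2, vertical axis) for each of the 30 probe sets at a testable level, brightest first within a gene, with the mean of 4 lines as a circle (filled for the brightest) and the lowest to highest line as a grey bar. The KDM6B means all lie between 0.50 and 0.68, while 4 of 5 KDM5A means lie below 0.

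Over all 30 testable probe sets of the 10 genes, 22 had a positive mean and 8 a negative one, and 12 were higher in all 4 lines. The other 5 probe sets were below the level for testing. Probe sets of 1 gene repeat each other: KDM6B gave 5 of the positive means and KDM5A 4 of the negative ones. The share over all probe sets of the array was not counted, so these counts only describe the probe sets. The number of the 10 genes that were higher was 7 in SKNAS, 7 in NB1691, 8 in SKNBE2 and 9 in SKNAS/shHIF1a, against 47.2%, 47.9%, 48.9% and 47.2% of all genes. The median change of the 10 was 0.23, 0.16, 0.47 and 0.34 in the same order, so it was lowest in NB1691.

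Whether the response to ciclopirox differed with the origin of the lines was tested on the 4 line changes, SKNAS and SKNAS/shHIF1a against NB1691 and SKNBE2. None of the 10 genes passed (limma, smallest adjusted p 0.723, for KDM6B), against 0.0344% of all genes, and 0 of 10 had an unadjusted p under 0.05, against 11.3%. The KDM6B change averaged 0.74 in SKNAS and SKNAS/shHIF1a and 0.35 in NB1691 and SKNBE2, a difference of 0.39 ± 0.35 (SE). This comparison has 2 residual degrees of freedom. Between SKNAS/shHIF1a and SKNAS the KDM3A change differed by -0.03, with 1 pair of arrays in each line and therefore no test.

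Levels of several of the 10 genes differed between lines whatever the treatment. Averaged over both treatments, KDM7A was lowest in SKNAS at 6.50, followed by NB1691 at 6.97, SKNAS/shHIF1a at 7.93 and SKNBE2 at 8.07. Of the 30 neighbouring pairs in the orders of the 10 genes, only that of SKNAS/shHIF1a and NB1691 for KDM7A passed the test (difference 0.96 ± 0.27, SE, limma adjusted p = 0.0366). For KDM3A the order was SKNAS at 9.56, SKNAS/shHIF1a at 9.27, NB1691 at 9.04 and SKNBE2 at 8.59, and no neighbours passed the adjusted test. NB1691 and SKNBE2 came closest, with a difference of 0.45 ± 0.18 (SE; limma adjusted p = 0.129, unadjusted p = 0.0483). Over all 60 pairs of lines, 15 passed: 2 of the 10 genes between SKNAS and NB1691 (37.7% of all genes), 4 between SKNAS and SKNBE2 (30.9%), 3 between NB1691 and SKNBE2 (25.1%), 2 between NB1691 and SKNAS/shHIF1a (37.2%), and 4 between SKNBE2 and SKNAS/shHIF1a (31.1%). The shares are near those of all genes. KDM2B and JMJD6 had none, and their line means spanned 8.78 to 9.09 and 9.85 to 10.39.

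SKNAS/shHIF1a and SKNAS differed past the test in 0 of the 10 genes (limma over all 8 arrays), against 1.58% of all genes (0.744% higher and 0.840% lower), and in 3 at an unadjusted p under 0.05, against 12.1%. KDM7A came closest. It was at 8.13 with ciclopirox and 7.73 with vehicle in SKNAS/shHIF1a, against 6.49 and 6.51 in SKNAS, a difference of 1.43 ± 0.27 (SE; limma adjusted p = 0.0792). When only these 4 arrays were fitted, KDM7A passed (limma adjusted p = 0.0461), 1 of 393 genes that did so among all genes. Both fits take the 2 arrays of a line, which differ in treatment, as replicates, so the call is weak. With the mean of both KDM7A probe sets, over all 8 arrays, the difference was 0.79 (adjusted p = 0.131). KDM2A was at -0.48 ± 0.16 (adjusted p = 0.309) and JMJD1C at 0.43 ± 0.17 (adjusted p = 0.386). KDM3A differed by -0.29 ± 0.18 (adjusted p = 0.679). Other genes separated these 2 lines as well: AXL, a mesenchymal marker, by -4.29 (adjusted p = 0.00713) and MYCN by 2.47 (adjusted p = 0.00928). AXL was the only 1 of 7 mesenchymal markers past the test, and 0 of 9 sympathoadrenal markers passed. Among them CHGB differed by -2.39 (adjusted p = 0.0601), and PTPRC, a blood cell marker, differed by -3.02 (adjusted p = 0.174). AXL, CHGB and PTPRC were named after their values were seen, and the part of these genes in the KDM7A difference was not tested.

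By origin, 5 of the 10 genes differed past the test between SKNAS and SKNAS/shHIF1a on one side and NB1691 and SKNBE2 on the other, against 45.8% of all genes, so the share is near the background. Higher were 3 of the 10, against 22.8%, and lower were 2, against 23.0%. KDM5B averaged 9.62 in SKNAS and SKNAS/shHIF1a, against 8.97 in NB1691 and SKNBE2 (0.65 ± 0.14, SE; limma adjusted p = 0.0116), and all 4 of its testable probe sets had that direction. KDM3A averaged 9.42 in the SKNAS lines, against 8.82 in NB1691 and SKNBE2 (0.60 ± 0.13; adjusted p = 0.0116). JMJD1C averaged 9.11 in the SKNAS lines, against 8.65 in NB1691 and SKNBE2 (0.47 ± 0.12; adjusted p = 0.0207), although 1 of its 4 testable probe sets had the other direction, at -0.17. KDM6B was lower in SKNAS and SKNAS/shHIF1a, at 6.40, against 7.31 in NB1691 and SKNBE2 (-0.91 ± 0.18; adjusted p = 0.00889), in all 5 probe sets. The mean of those probe sets, at -0.70, missed the threshold (adjusted p = 0.0514). KDM3B was lower there too, at 9.11, against 9.58 in NB1691 and SKNBE2 (-0.47 ± 0.11; adjusted p = 0.0164), in both probe sets. These p-values treat the 2 arrays of a line as replicates, and the calls depended on the lines. Leaving out a line gave 2 calls among the 10 without SKNAS, 2 without SKNBE2, 3 without SKNAS/shHIF1a and 6 without NB1691. Among all genes the calls were 4378, 5822, 5134 and 5766 in the same order, against 6643 with all lines. KDM3A no longer passed without SKNAS (0.46, adjusted p = 0.121) or SKNBE2 (0.38, adjusted p = 0.130). KDM5B no longer passed without SKNBE2 (0.33, adjusted p = 0.186) or SKNAS/shHIF1a (0.45, adjusted p = 0.130). JMJD1C no longer passed without NB1691 (0.26, adjusted p = 0.202) or SKNAS/shHIF1a (0.25, adjusted p = 0.296). KDM3B passed in only 1 of these 4 fits, that without NB1691, with differences of -0.52 to -0.43. KDM6B missed in 1 of them, without SKNAS (-0.83, adjusted p = 0.0661).

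**Figure D4:**
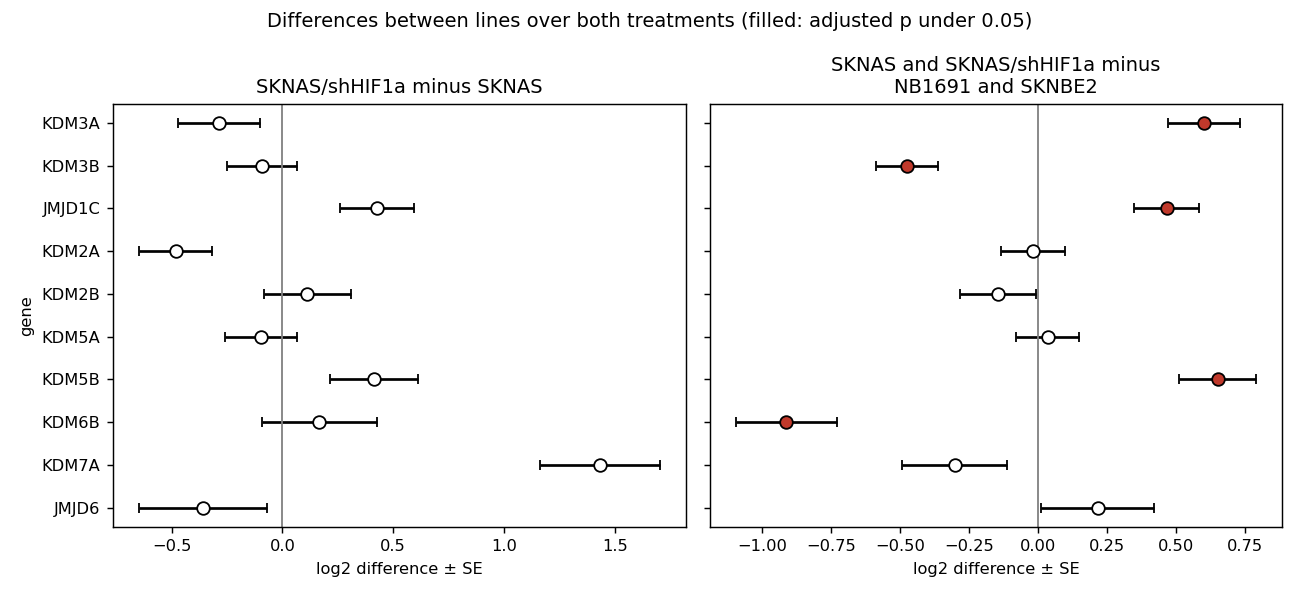
Differences in level between lines over both treatments (log2, horizontal axes, mean ± SE) for the 10 genes, SKNAS/shHIF1a minus SKNAS on the left and both SKNAS lines minus NB1691 and SKNBE2 on the right, filled where the adjusted p is under 0.05. KDM7A stands at 1.43 on the left, and 5 genes are filled on the right.

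The same lines differed in markers of the 2 known states of neuroblastoma cells. All 9 sympathoadrenal markers tested were lower in SKNAS and SKNAS/shHIF1a than in NB1691 and SKNBE2, with a summed level (log2) of 11.90 to 13.17 against 14.10 to 14.79. All 7 mesenchymal markers were higher, 13.43 to 14.05 against 10.64 to 12.46. Of the 3 blood markers on the array, CD3E and CD14 were below the level for testing and PTPRC was at 6.33 to 11.53 in SKNAS and SKNAS/shHIF1a and 3.03 to 3.29 in the other lines. PTPRC was at 10.42 with ciclopirox and 11.53 with vehicle in SKNAS, and at 6.33 with ciclopirox and 9.57 with vehicle in SKNAS/shHIF1a. Its mean change of -1.09 did not pass the test (limma adjusted p = 0.346). The part of these differences in the levels and changes of the JmjC genes was not tested. With ciclopirox the summed sympathoadrenal level was 11.90 to 14.28, against 13.02 to 14.79 with vehicle, and the mesenchymal one 11.56 to 14.05, against 10.64 to 13.63. In bulk RNA, fewer cells of a type and less RNA per cell cannot be told apart.

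Further JmjC genes, other demethylases and related enzymes were set beside the 10 as lists. Of 18 further JmjC genes tested, not all of them histone demethylases, 1 was higher and 5 were lower at an unadjusted p under 0.05. Of all genes, 7.67% were higher and 10.2% lower at that threshold. None of the 18 passed the adjusted limma test, and the list's median change was 0.07. HR, a corepressor with an H3K9 demethylase domain, averaged 0.93 ± 0.26 (SE, n = 4; adjusted p = 0.187) and JMJD4, a lysyl hydroxylase, -0.62 ± 0.18 (adjusted p = 0.196). The flavin-dependent H3K4 demethylases KDM1A and KDM1B, which need no iron, averaged -0.39 and -0.37. The 12 TET and AlkB-type enzymes, which share the iron and 2-oxoglutarate chemistry but act mostly on nucleic acids, had a median of -0.07. FTO was at -0.41 and ALKBH8 at -0.35.

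The lists for the enzymes that write the marks and for subunits of their complexes had medians close to 0. The 6 H3K9 methyltransferases had a median of -0.04, with SUV39H2 at -0.42 and EHMT1 at -0.27. The 4 H3K27 genes had -0.08, with EZH2 at -0.28 and EZH1 at 0.25. The 9 H3K4 genes, some of which encode subunits and not the enzymes, had 0.07. Of these, 2 were higher at an unadjusted p under 0.05 (KMT2A at 0.39 and KMT2B at 0.36). A median for the enzymes alone was not taken. The 4 H3K36 methyltransferases had -0.04, with NSD1 at -0.52 and NSD2 at -0.21. The 8 tested partners of KDM2B in its Polycomb complex had a median of 0.13, with RYBP at 0.25 and YAF2 at 0.19. None of these genes passed the adjusted test.

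Among 22 HIF target genes, 19 were higher and 0 lower at an unadjusted p under 0.05, against 7.67% and 10.2% of all genes. Higher in all 4 lines were 16, against 11.8%, and 0 passed the adjusted test. The list was chosen with earlier results of these data known, so the counts only describe these genes. Their median change was 1.12, and by line it was 1.86 in SKNAS, 0.57 in NB1691, 1.02 in SKNBE2 and 0.99 in SKNAS/shHIF1a. BHLHE40, a transcriptional repressor, averaged 2.46 and NDRG1, a stress-responsive gene, 2.11. The KDM3A mean of 1.22 was exceeded by 10 of these 22 genes. KDM3A had its smallest change in NB1691, the line with the lowest median of the HIF targets, but its largest in SKNBE2 rather than SKNAS.

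**Figure D5:**
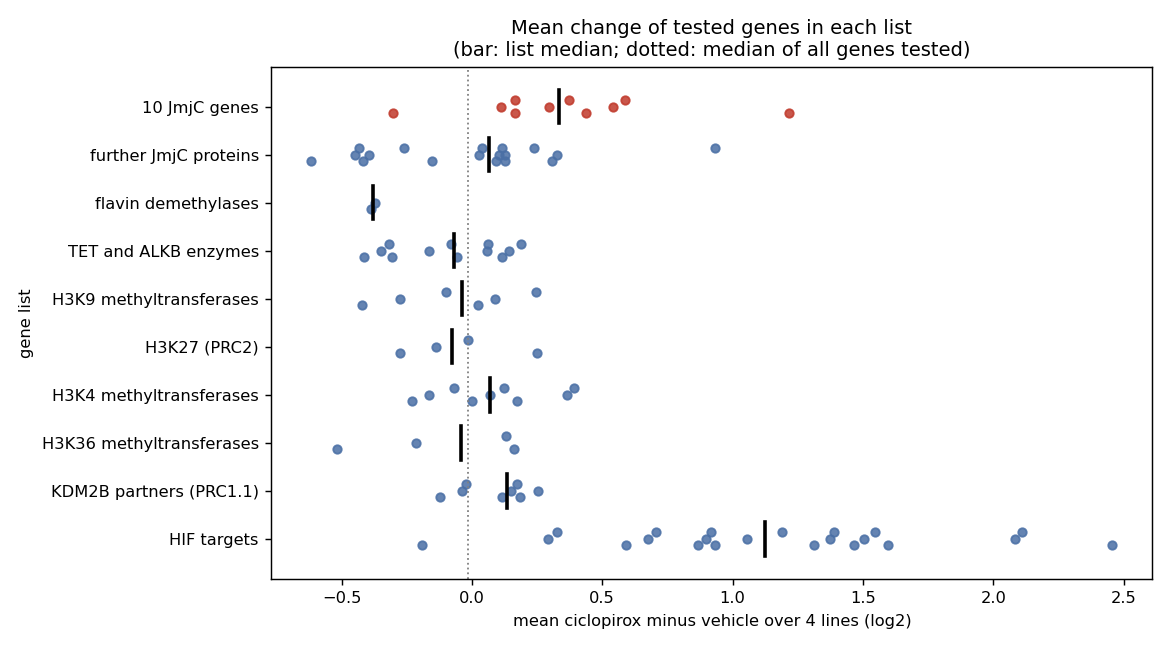
Mean ciclopirox minus vehicle over 4 lines (log2, horizontal axis), 1 point per tested gene, for the 10 JmjC genes and each comparison list, with the list median as a bar and the median of all genes tested, -0.01, as a dotted line. The bar of the 10 JmjC genes is at 0.33 and that of the HIF targets at 1.12.

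The genes whose 4 line changes lay nearest to those of a JmjC gene were found by Euclidean distance over the 4 lines among all tested genes. For KDM3A they were PPP1R3C at 0.327, MXD1 at 0.506 and DUSP10 at 0.561. For JMJD6, with its high value in NB1691 and none in SKNBE2, they were OSBPL10 at 0.111, TFE3 at 0.198 and SPATA2L at 0.219. For KDM6B they were SUGT1P1 at 0.204, TSPYL2 at 0.205 and SNX16 at 0.211. With 4 points per gene, such likeness is a description.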

How the data were processed

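Total RNA of 4 neuroblastoma lines was labelled as biotinylated cRNA and hybridised, per the labels' protocols. The authors deposited log2 values, summarised by RMA (a robust average of each probe set's probes) according to the labels, that is, per the submitters' processing notes; no version is named. RMA puts the probe signals of all arrays on 1 distribution before they are averaged, so a shift common to most genes would not be seen. No scaling was added.

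Of 54715 probe sets, 102 were controls, 40914 had 1 gene symbol, 864 several and 12835 none. Names came from GEO's platform annotation. Each gene took its brightest probe set, and the 14517 genes whose mean was at or above the 40th percentile over probe sets (3.21 on the log2 scale) entered the fits, made with limma 3.58.1 in R 4.3.3. Ciclopirox was compared with vehicle within lines, each line being a block (residual degrees of freedom 3, prior 2.98). Every SE and confidence interval is limma's, in which the variance of a gene is drawn toward that of all genes. The pairing comes from the shared line, and same-line deviations correlated across genes with Pearson r of 0.898, 0.867, 0.885 and 0.817. Line comparisons used all arrays with treatment as a covariate. Tests were two-sided, with p-values adjusted by Benjamini and Hochberg's method and a threshold of 0.05. The smallest p of an exact sign-flip test over 4 lines is 0.125, and that test was not run. The fits were tested on simulated data.

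The 10 genes and the comparison lists were chosen with earlier results of these data known. Genes named from a list are the 2 with the largest mean change in size where none passed, and for the 3 of the 10 with the largest change the 3 nearest genes. Alternatives tried were no block, leaving out lines, averaging the related lines, other level filters, averaging all probe sets of a gene, each probe set alone, median centring, quantile normalization, an intensity trend and fewer arrays. Promoter windows are RefSeq's on GRCh38.p14.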

Additional observations from a re-analysis of the deposited data

How the results depend on the processing

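No ciclopirox alternative gave a gene past the adjusted test, among all genes or the 10. Without the cell line as a replicate block the count was also 0, and KDM3A had an adjusted p of 1.00. The KDM3A change stayed between 1.16 and 1.31, except 0.57 with the mean of its probe sets. Its limma adjusted p was 0.077 with an intensity trend. It was 0.200 to 0.384 when a line was left out, and 0.306 with SKNAS and its derivative averaged. Of 280 values of the 10 genes recomputed over all comparisons, 247 kept sign and side of the threshold, 17 changed sign, 5 newly passed and 11 no longer passed. Members without probe sets whose names mark possible cross-hybridization were an alternative chosen after seeing the data. Only KDM3B and KDM5B use such probe sets.

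For ciclopirox, single probe sets turned the sign of JMJD1C (-0.16), KDM5A (-0.076, -0.17, -0.22 and -0.19), KDM5B (-0.19) and JMJD6 (-0.18), and the mean of probe sets turned KDM5A (-0.11). That mean also gave 0.22 for JMJD6, 0.16 for KDM5B and 0.20 for JMJD1C, against 0.59, 0.37 and 0.44 with the brightest probe set, and 0.34 for KDM7A, against 0.16. By origin, leaving out a line gave 4378 to 5822 genes and 2 to 6 of the 10. The differences then ranged between -0.25 and 0.32 for KDM5A, which turned without SKNAS or SKNBE2, between -1.02 and 0.41 for KDM7A, which turned without the same lines, and between -0.46 and 0.42 for KDM2A, which turned without SKNBE2 or SKNAS/shHIF1a. The mean of probe sets turned KDM2A (0.059) and KDM5A (-0.45, adjusted p = 0.0200), and centring turned KDM5A (-0.024). With only the 4 arrays of SKNAS/shHIF1a and SKNAS, 393 genes and 1 of the 10 passed, against 230 and 0. The difference in response by origin had 9 genes with the mean of probe sets, against 5. The causes were not tested. One array per line and treatment limits every value.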

Other observations

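BCOR, a KDM2B partner in its Polycomb complex, was the only gene of that list past the test between SKNAS/shHIF1a and SKNAS. It had log2 levels of 2.33 with ciclopirox and 2.55 with vehicle in SKNAS/shHIF1a, against 7.64 and 7.35 in SKNAS (limma adjusted p = 0.00116). The levels in SKNAS/shHIF1a are below the 3.21 required of a gene's mean, so the size of the difference is not resolved there. NB1691 had 8.99 and 9.04 and SKNBE2 had 8.79 and 8.36. A second BCOR probe set gave 2.58 and 3.33 in SKNAS/shHIF1a, against 6.66 and 6.19 in SKNAS, and another gave 3.20 and 3.36, against 4.95 and 4.42. KDM2B itself differed by 0.11 between these lines. BCOR did not pass with ciclopirox (0.12 ± 0.15, adjusted p = 0.726).

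HR, of the further JmjC genes, was at 7.16 with ciclopirox and 5.42 with vehicle in SKNAS/shHIF1a, against 5.24 and 4.08 in SKNAS. Its change was 1.75 in SKNAS/shHIF1a, 1.15 in SKNAS, 0.20 in NB1691 and 0.64 in SKNBE2, so that all lines were higher. Neither the ciclopirox comparison (adjusted p = 0.187) nor the line comparison (1.63 ± 0.37, SE, adjusted p = 0.127) passed in limma.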
